A study of Mus musculus with 10 samples.

Results

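Glycolysis breaks glucose down to pyruvate, and the genes for several of its steps are induced when oxygen is short. A set of 9 such genes was followed in the renal cortex of mice treated with aliskiren or losartan after loss of renal mass. The set holds the glucose transporter gene Slc2a1, the hexokinase genes Hk1 and Hk2, the phosphofructokinase genes Pfkp and Pfkl, the kinase genes Pgk1 and Pkm, the lactate dehydrogenase gene Ldha and the mitophagy gene Bnip3. They were taken by symbol from 18193 genes with a probe set of their own on the array, and each was read from the probe set that averaged highest across the 10 mice. The members and the gene lists below were chosen with earlier results of these data known. Their counts beside the share of all entries are therefore a description. All 9 passed the level filter, a mean of at least 5.53 on the log2 scale, which is the median over all probe sets. Hk2 did so only through losartan mouse 3: the other mice averaged 5.46, and 6 of 10 mice lay below 5.53. For Hk1 the probe set of highest mean is annotated to 6 genes or pseudogenes, among them the ribosomal protein gene Rpl17. It is reported as shared, and the highest-mean probe set annotated to Hk1 alone is given beside it.

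The arrays came from FVB/N mice aged 20 weeks, 1 array per mouse, that had undergone 2/3 kidney ablation and then uninephrectomy. Aliskiren, a renin inhibitor, was given to 5 mice at 50 mg/kg per day, and losartan, a blocker of the type 1 angiotensin II receptor, to the other 5 mice at 500 mg/l. Drug treatment lasted 6 weeks in both groups and was started when 6 weeks had passed since the ablation and 4 weeks since the uninephrectomy. Untreated and unoperated mice were not analysed here, so every value is a level after renal mass loss and drug together, and the remnant is a bulk sample of cortex.

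Under hypoxia the transcription factor HIF, a dimer of an oxygen-regulated alpha subunit (HIF-1 alpha or HIF-2 alpha) and a constant beta subunit, binds a short element in the control regions of its targets. Its glycolytic targets, Slc2a1, Pgk1, Ldha and others, raise glucose uptake and lactate output, and Bnip3 marks mitochondria for removal. In the kidney the proximal tubule, the bulk of the cortex, makes glucose and burns mainly fatty acids, while distal segments use more glycolysis. After tubular injury, proximal cells and infiltrating leukocytes are known to shift towards glycolysis.

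Promoters of 4 members are shown because these genes mark the ends of the pattern described below. Pfkp followed kidney injury most closely, Hk2 was far higher in 1 mouse than in the rest, and Ldha and Pgk1 had the narrowest spreads among members read from probe sets of their own. Each window runs from 250 bases before to 50 after a RefSeq start on GRCm38.p6, 5′ to 3′ on the gene's strand. Capitals mark the core of the hypoxia response element, ACGTG or GCGTG, or its reverse complement, CACGT or CACGC.
Pfkp (chr13:6648722-6649021, minus strand): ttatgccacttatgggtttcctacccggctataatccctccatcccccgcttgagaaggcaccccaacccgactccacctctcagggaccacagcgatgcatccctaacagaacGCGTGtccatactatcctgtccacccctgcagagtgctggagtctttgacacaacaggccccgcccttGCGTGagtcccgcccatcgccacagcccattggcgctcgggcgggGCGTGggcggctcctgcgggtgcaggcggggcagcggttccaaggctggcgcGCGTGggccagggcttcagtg
Hk2 (chr6:82774405-82774704, minus strand): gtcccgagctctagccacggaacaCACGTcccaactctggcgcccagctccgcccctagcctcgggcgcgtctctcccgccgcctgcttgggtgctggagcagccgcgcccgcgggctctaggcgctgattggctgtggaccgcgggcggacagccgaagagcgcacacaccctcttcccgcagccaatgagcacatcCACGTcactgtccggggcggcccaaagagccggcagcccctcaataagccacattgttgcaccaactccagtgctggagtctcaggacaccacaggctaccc
Ldha, first of 2 start windows (chr7:46845554-46845853, plus strand): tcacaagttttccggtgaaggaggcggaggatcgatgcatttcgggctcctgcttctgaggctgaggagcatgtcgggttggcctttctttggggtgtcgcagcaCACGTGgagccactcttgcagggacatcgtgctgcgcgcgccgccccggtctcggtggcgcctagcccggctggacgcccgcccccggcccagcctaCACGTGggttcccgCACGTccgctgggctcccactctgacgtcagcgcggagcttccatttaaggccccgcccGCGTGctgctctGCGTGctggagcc
Pgk1 (chrX:106186850-106187149, plus strand): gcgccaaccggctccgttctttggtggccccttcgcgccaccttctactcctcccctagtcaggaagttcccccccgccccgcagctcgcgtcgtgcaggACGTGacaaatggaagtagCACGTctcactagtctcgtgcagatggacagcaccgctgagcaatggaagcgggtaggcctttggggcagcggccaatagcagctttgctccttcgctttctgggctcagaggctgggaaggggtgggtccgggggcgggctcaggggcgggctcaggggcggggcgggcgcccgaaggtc
Counting each match on either strand, the Pfkp window held 4, all GCGTG, the Hk2 window 2, the Ldha window 7 and the Pgk1 window 2. In the Ldha window some matches overlap, because CACGTG, the E-box of other factors, contains both ACGTG and CACGT. Of the 12 windows of the 9 members 10 held a match, compared with 43.8% of 32817 promoter windows of the same length in the table, of which 3.9% held 4 or more. Hk1 and Pkm each had a window with 0 matches. A match in a window is a description of its letters, not of binding. The members were chosen as glycolysis and hypoxia response genes, and the windows were not matched in base content. The shares are therefore not a test.

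The array medians lay between 5.52 and 5.56. The proximal tubule list, 10 markers of which all had a probe set of their own, averaged 12.88 to 13.13 in aliskiren mice and 12.78 to 13.24 in losartan mice. Skeletal muscle markers averaged 3.97 to 4.38 in aliskiren mice and 4.21 to 4.41 in losartan mice. Losartan mouse 3 stood apart in several ways. It had the highest level of Havcr1, the gene of a surface protein that injured tubules make, at 10.76, where the other mice lay between 5.41 and 9.37. It also had the highest adipocyte list mean, 10.34 over 6 genes. Adipoq, an adipocyte hormone gene, was at 9.90 in aliskiren mouse 3, at 7.35 in aliskiren mouse 2 and at 12.96 in losartan mouse 3, and lay between 3.17 and 3.96 in the remaining mice. Slopes of the members are given with and without losartan mouse 3. In a bulk sample, more cells of a type and more RNA per cell cannot be told apart.

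None of the 9 members differed between the drugs beyond the spread between mice. With limma on all 11487 tested entries (11486 genes and the shared Hk1 probe set), 0 members were higher and 0 lower with aliskiren at a Benjamini-Hochberg adjusted p under 0.05, where the share called over all entries was 0% in each direction. At an unadjusted p under 0.05 there were 0 members against 542 entries, 4.72%. An ordinary t statistic gave 573 entries, 4.99%, at that level and 0 after adjustment. The median difference of the members, aliskiren minus losartan, was -0.022 on the log2 scale, beside -0.0097 over all entries, and 3 of 9 were positive. The groups overlapped for every member, as they did for all but 0.914% of entries. For 6 of 9 members the 95% interval of the difference stayed within 1.5-fold in either direction, compared with 87.7% of entries. The other 3, Hk2, Pfkp and Pkm, varied too much between mice for such a bound.

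**Figure D1:**
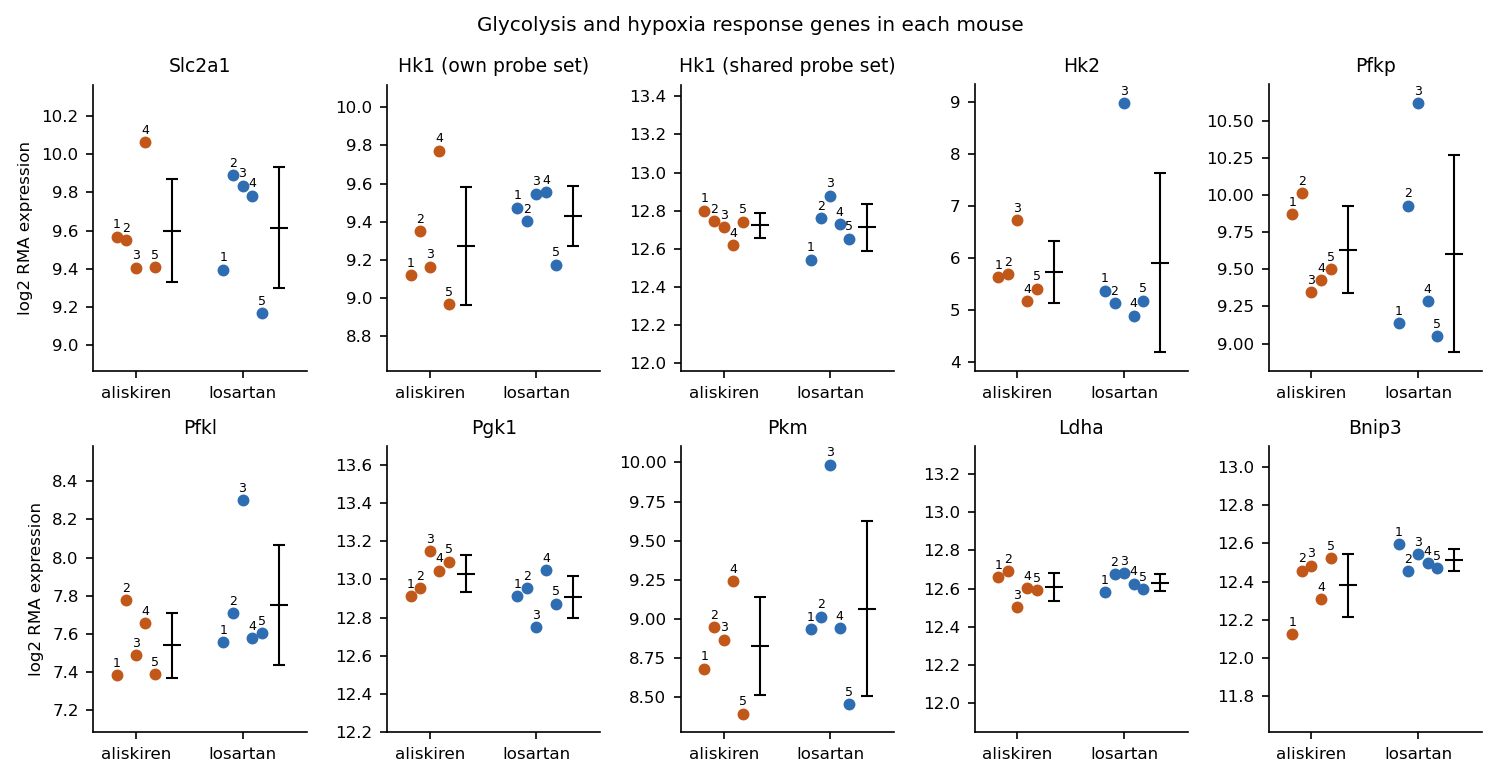
Log2 RMA expression (y axis, a range of its own in each panel) of the 9 members in each mouse (Hk1 by its own and by the shared probe set), aliskiren on the left and losartan on the right. Numbers are mouse numbers and bars are mean ± SD of 5 mice. The groups overlap in every panel, and losartan mouse 3 is the highest point for Hk2, Pfkp, Pfkl, Pkm and the shared Hk1 probe set.

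Slc2a1 encodes GLUT1, the basolateral glucose transporter of distal nephron segments and of many growing cells. It was at 9.57, 9.55, 9.40, 10.06 and 9.41 in aliskiren mice 1 to 5, against 9.39, 9.89, 9.83, 9.78 and 9.17 in losartan mice 1 to 5. Aliskiren mouse 4 was the highest of all and losartan mouse 5 the lowest, with the other mice of both groups mixed between them. The means were 9.60 ± 0.27 and 9.61 ± 0.32 (SD, n = 5 each), and the difference of -0.015 (SE 0.17) had a limma adjusted p of 0.996. The 95% interval ran from -0.39 to 0.36. Without losartan mouse 3 the difference was 0.041, a change of sign within the error. Both other Slc2a1 probe sets gave differences near 0 as well, -0.019 (SE 0.17) and -0.091 (SE 0.17).

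The hexokinases trap glucose in the cell as glucose 6-phosphate. Hk1 is the housekeeping form, and its own probe set was at 9.12, 9.35, 9.16, 9.77 and 8.97 in aliskiren mice 1 to 5, against 9.47, 9.40, 9.55, 9.56 and 9.17 in losartan mice 1 to 5. As for Slc2a1, aliskiren mouse 4 was the highest. The difference was -0.16 (SE 0.14, limma adjusted p = 0.949). The shared probe set lay between 12.62 and 12.80 in aliskiren mice and between 12.54 and 12.88 in losartan mice, with a difference of 0.011 (SE 0.068). The probe sets thus differ in sign, and the shared reading cannot be assigned to Hk1.

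Hk2, the hexokinase induced by insulin and by hypoxia and abundant in muscle and fat, was at 5.63, 5.68, 6.73, 5.17 and 5.40 in aliskiren mice 1 to 5, against 5.37, 5.13, 8.97, 4.89 and 5.18 in losartan mice 1 to 5. Losartan mouse 3 lay far above the rest and aliskiren mouse 3 came next. Both were also the highest in the adipocyte list, at 8.01 in aliskiren mouse 3 and 10.34 in losartan mouse 3, while the list ranged from 4.82 to 6.16 in the other aliskiren mice and from 4.90 to 4.98 in the other losartan mice. The lower Hk2 values were under the level filter, so the size of the difference from them is uncertain. The part of the adipocyte markers in the Hk2 values was examined only by taking the list mean as a covariate and by leaving out the mice high in these markers. The drug difference was -0.18 (SE 0.72, limma adjusted p = 0.994) with all mice and turned to 0.58 without losartan mouse 3.

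The phosphofructokinases catalyse the committed step of glycolysis. Pfkp, the platelet form, was at 9.87, 10.01, 9.35, 9.43 and 9.50 in aliskiren mice 1 to 5, against 9.14, 9.93, 10.62, 9.29 and 9.05 in losartan mice 1 to 5. Losartan mouse 3 was the highest, aliskiren mouse 2 and losartan mouse 2 followed, and losartan mice 5 and 1 were the lowest. The means were 9.63 ± 0.29 and 9.61 ± 0.66 (SD, n = 5 each), a difference of 0.028 (SE 0.29, limma adjusted p = 0.996) that was 0.28 without losartan mouse 3. Pfkl, the liver form, was at 7.39, 7.78, 7.49, 7.66 and 7.39 in aliskiren mice, against 7.56, 7.71, 8.30, 7.58 and 7.61 in losartan mice. Apart from losartan mouse 3 the Pfkl values of both groups lay in a narrow band. The difference of -0.21 (SE 0.15, limma adjusted p = 0.949) was -0.073 without that mouse. The other Pfkl probe sets gave differences of -0.026 (SE 0.087) and -0.0080 (SE 0.098) with all mice, the latter from a probe set below the level filter.

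Pgk1 makes ATP in the payoff phase, and Pkm encodes the pyruvate kinase of most tissues other than liver and red cells. Pgk1 was at 12.91, 12.95, 13.15, 13.05 and 13.09 in aliskiren mice, against 12.91, 12.96, 12.75, 13.05 and 12.87 in losartan mice. Its difference of 0.12 (SE 0.070) had the smallest p of the members, 0.109 before and 0.945 after adjustment by limma. The other Pgk1 probe sets gave -0.026 (SE 0.067) and 0.050 (SE 0.080), so the direction was not shared by all of them. Pkm was at 8.68, 8.95, 8.87, 9.24 and 8.40 in aliskiren mice, against 8.94, 9.02, 9.99, 8.94 and 8.46 in losartan mice, with losartan mouse 3 again the highest. Its difference of -0.24 (SE 0.25, limma adjusted p = 0.952) was -0.011 without that mouse.

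Ldha, the lactate dehydrogenase subunit that favours lactate formation, varied least. It was at 12.66, 12.69, 12.50, 12.60 and 12.59 in aliskiren mice, against 12.58, 12.68, 12.68, 12.62 and 12.60 in losartan mice, a span of 1.14-fold over all 10. The difference was -0.022 (SE 0.052), with a 95% interval of -0.14 to 0.093 (limma adjusted p = 0.986). Bnip3, a receptor for mitophagy in the outer mitochondrial membrane, was at 12.12, 12.46, 12.48, 12.31 and 12.52 in aliskiren mice, against 12.60, 12.45, 12.54, 12.50 and 12.47 in losartan mice. Aliskiren mice 1 and 4 were the lowest and the remaining mice were mixed. The difference was -0.13 (SE 0.079, limma adjusted p = 0.945), with a 95% interval of -0.31 to 0.043.

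Along the injury level of the same mouse, 1 of the 9 members changed: Pfkp rose with Havcr1. Havcr1 itself ranged from 5.41 in losartan mouse 5 to 10.76 in losartan mouse 3, with a median of 7.52. The widest gap between neighbouring mice lay below losartan mouse 3, since the next mouse, aliskiren mouse 1, was at 9.37. The slope is the log2 change of a gene per log2 unit of Havcr1, from a limma fit with treatment as a second term, and p-values were adjusted over 11486 entries. In this fit 1258 entries, 11.0%, rose and 334, 2.91%, fell at an adjusted p under 0.05. For the members the counts were 1 and 0, so the share of members that rose, 1 of 9, was near that of all entries. The median slope of the members was 0.059, beside 0.0089 over all entries, and 7 of 9 slopes were positive, beside 6503 of 11486 entries. With losartan mouse 3 left out the median was 0.0091 for the members and 0.0146 over all entries. In that fit 6 of 9 member slopes and 7369 of 11486 entries were positive. At an unadjusted p under 0.05 there were 4 members with a positive slope (Hk1 by its shared probe set, Hk2, Pfkp and Pfkl), where 21.4% of all entries had a positive slope past that level. There were 0 members with a negative slope past it, against 10.7% of all entries. Of the 4, Hk2 passed the level filter only through losartan mouse 3, which also had the highest Havcr1 level. The shared probe set cannot be assigned to Hk1, whose own probe set had a slope of 0.0038. Without losartan mouse 3 the slopes were -0.078 for Hk2, 0.0041 for Pfkl, 0.028 for the shared probe set and 0.21 for Pfkp. The count of 4 is therefore a description.

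**Figure D2:**
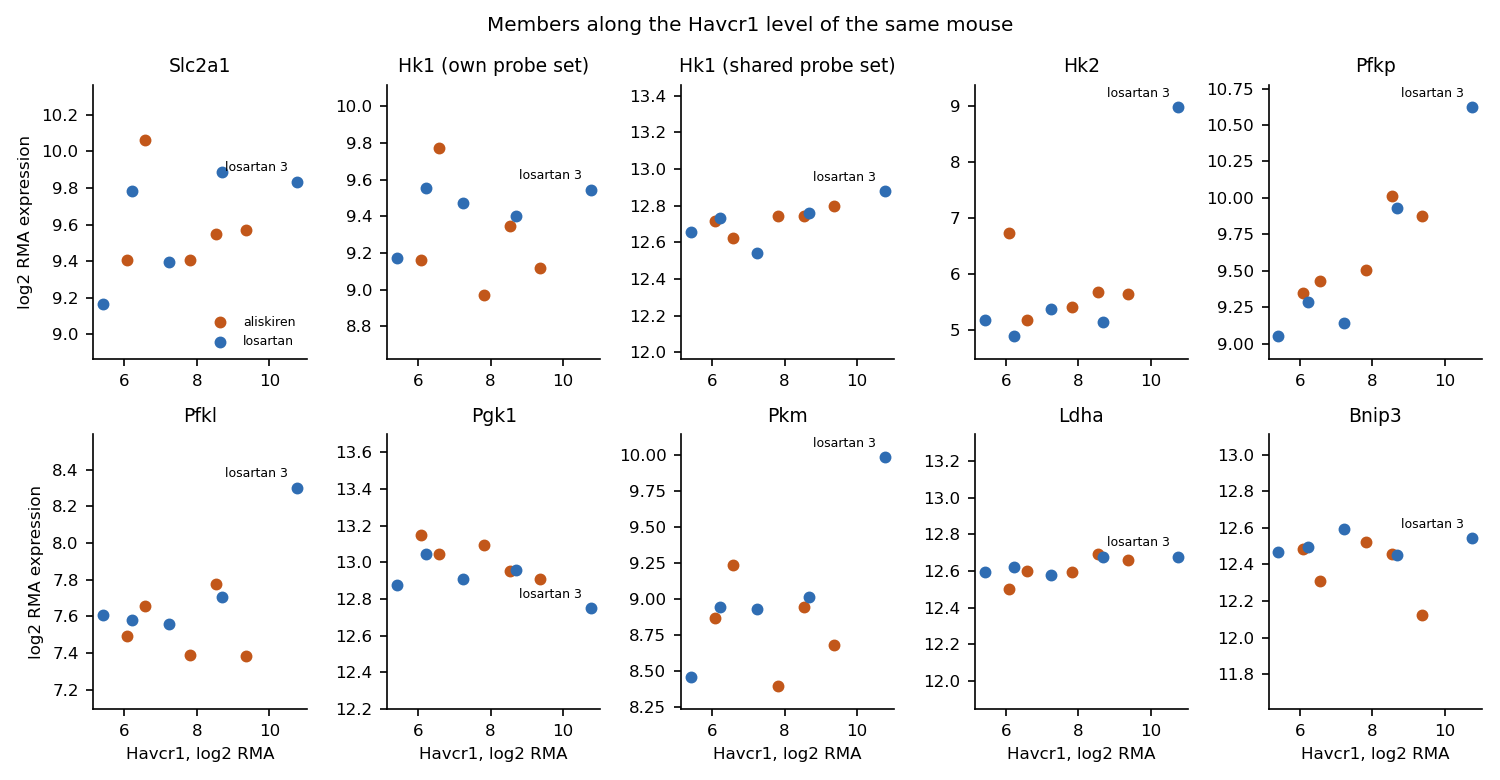
Log2 RMA expression of each member (y axis, a range of its own in each panel) against the log2 RMA level of Havcr1 in the same mouse (x axis), aliskiren mice in orange and losartan mice in blue. Pfkp climbs from 9.05 in the mouse of lowest Havcr1 to 10.62 in the mouse of highest Havcr1, while for Hk2, Pfkl and Pkm losartan mouse 3 stands above the rest.

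The Pfkp slope was 0.27 (SE 0.036, limma adjusted p = 0.00322), with a 95% interval of 0.19 to 0.35. In order of rising Havcr1, Pfkp stood at 9.05, 9.35, 9.29, 9.43, 9.14, 9.50, 10.01, 9.93, 9.87 and 10.62. The 6 mice of lower Havcr1 all lay below the 4 mice of higher Havcr1, in both drug groups. This cut was chosen after the values were seen and is a description. Among the 4, Pfkp went from 10.01 to 9.93 and 9.87, with 10.62 in losartan mouse 3. Without losartan mouse 3 the slope was 0.21 (SE 0.045), with an interval of 0.11 to 0.32, and the call was lost (limma adjusted p = 0.0944). Of 28 alternative settings 24 kept the call, and the other 4 all left out losartan mouse 3, alone or with further mice. The fit without this mouse called 22 entries as rising, 0.192%, and 0 as falling, with 1471 entries, 12.8%, at an unadjusted p under 0.05. Pearson's r of Pfkp with Havcr1 was 0.93 (permutation p = 0.00029, adjusted over 11486 entries 0.013) and Spearman's rho 0.87 (permutation p = 0.00228, adjusted 0.0751). Without losartan mice 3 and 5, the mice farthest from the Havcr1 median, r was 0.83.

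A second Pfkp probe set also rose, at 0.13 (SE 0.031, adjusted p = 0.0356 by limma over all probe sets), while the third had a slope of -0.018 (SE 0.034). Both averaged just above the level filter, at 5.57 and 5.56. Within drug groups the Pfkp slope was 0.19 (SE 0.064) in aliskiren mice and 0.30 (SE 0.041) in losartan mice, and the difference of -0.11 (SE 0.076) did not pass (limma interaction, adjusted p = 0.767). Markers of several cell types moved with Havcr1 too, where 11.0% of all entries rose and 2.91% fell. Of 9 tested macrophage genes 8 rose and 0 fell, with a median slope of 0.575, and 2 of them passed without losartan mouse 3. The macrophage list mean ranged from 6.86 to 8.43 in aliskiren mice and from 6.15 to 9.11 in losartan mice. Of 7 fibroblast and matrix genes 6 rose, with a median slope of 0.45, while without losartan mouse 3 the count was 0 and the median 0.30. Of 6 endothelial genes 1 rose, with a median slope of 0.10, and without that mouse the count was 0 and the median 0.098. All 6 endothelial slopes were positive in both fits. Of 7 tubular injury genes tested beside Havcr1 7 rose, and 0 passed without losartan mouse 3. In the podocyte, distal nephron, adipocyte, skeletal muscle and erythroid lists 0 genes passed. Of 3 tested lymphocyte genes 0 rose and 1 fell, Cd4 at -0.097 (SE 0.020, limma adjusted p = 0.0144), and all 3 slopes were negative. Without losartan mouse 3 Cd4 was at -0.078 (limma adjusted p = 0.273), and 2 of the 3 slopes were negative. All 10 proximal tubule slopes were negative, with a median of -0.040, and 0 passed. Without losartan mouse 3, 8 of the 10 were negative, with a median of -0.013. The part of these cell types in the Pfkp slope was not tested.

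**Figure D3:**
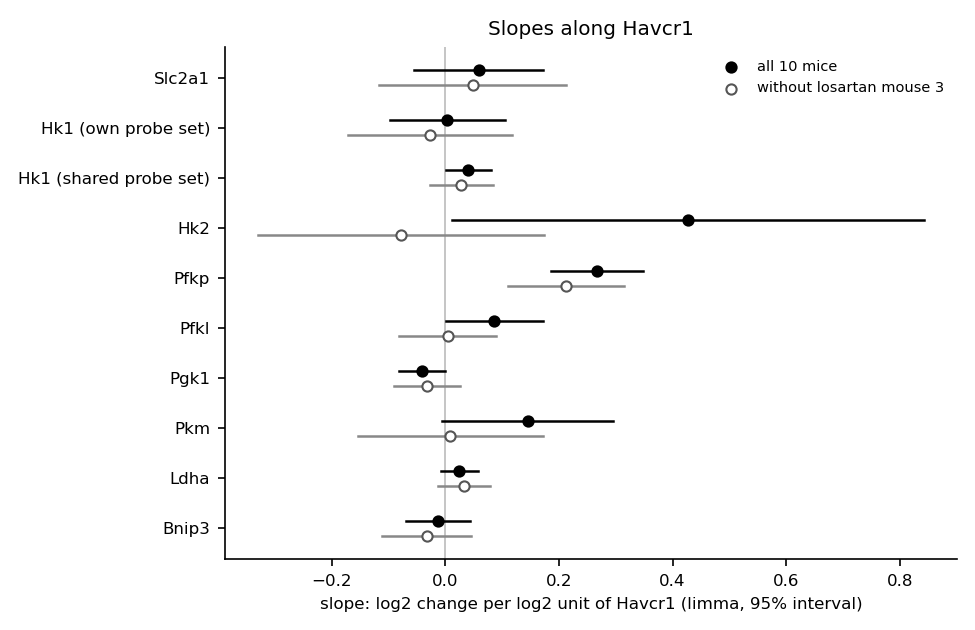
Slope of each member along Havcr1 (x axis, log2 change per log2 unit of Havcr1) with its 95% interval from limma, for all 10 mice (filled) and without losartan mouse 3 (open). Without this mouse the slope of Hk2 turns from 0.43 to -0.078 and those of Pfkl and Pkm fall close to 0, while the Pfkp interval stays above 0.

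Hk2, Pkm and Pfkl had positive slopes that rested on losartan mouse 3. The Hk2 slope was 0.43 (SE 0.19, limma adjusted p = 0.147) with all mice and -0.078 without that mouse. Without aliskiren mouse 3, whose Hk2 level was high at a Havcr1 level of 6.08, the Hk2 slope was 0.58 and passed (limma adjusted p = 0.0361). Hk2 passed the level filter only through losartan mouse 3, which also had the highest Havcr1 level, so this call has no support beyond that mouse. With the adipocyte list mean in the fit the Hk2 slope was 0.14 (limma adjusted p = 0.15). The Pkm slope was 0.14 (SE 0.068, limma adjusted p = 0.172) with all mice and 0.0091 without losartan mouse 3. The Pfkl slope was 0.086 (SE 0.038, limma adjusted p = 0.15) and 0.0041 without it. The other Pfkl probe sets had slopes of 0.011 (SE 0.027) and -0.0072 (SE 0.031) with all mice, the latter from a probe set below the level filter. In the interaction fit the Hk2 slope was -0.17 in aliskiren mice and 0.67 in losartan mice, a difference of -0.84 (SE 0.33). The Pkm slope was -0.098 in aliskiren mice and 0.24 in losartan mice, a difference of -0.34 (SE 0.11). Neither passed after adjustment over all entries (limma adjusted p = 0.664 and 0.652), where 0 entries were called and 826, 7.19%, had an unadjusted p under 0.05.

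The remaining members did not pass along Havcr1. Ldha had a slope of 0.025 (SE 0.015, limma adjusted p = 0.268), and its interval of -0.0076 to 0.058 lay below that of Pfkp. Pgk1 had -0.041 (SE 0.018, limma adjusted p = 0.16), with negative slopes for all 3 probe sets. Slc2a1 had 0.059 (SE 0.051, limma adjusted p = 0.45), and the slopes of its 3 probe sets lay between 0.059 and 0.088. Bnip3 had -0.013 (SE 0.025, limma adjusted p = 0.761). Hk1 had 0.0038 (SE 0.045) by its own probe set and 0.040 (SE 0.018, limma adjusted p = 0.15) by the shared probe set.

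**Figure D4:**
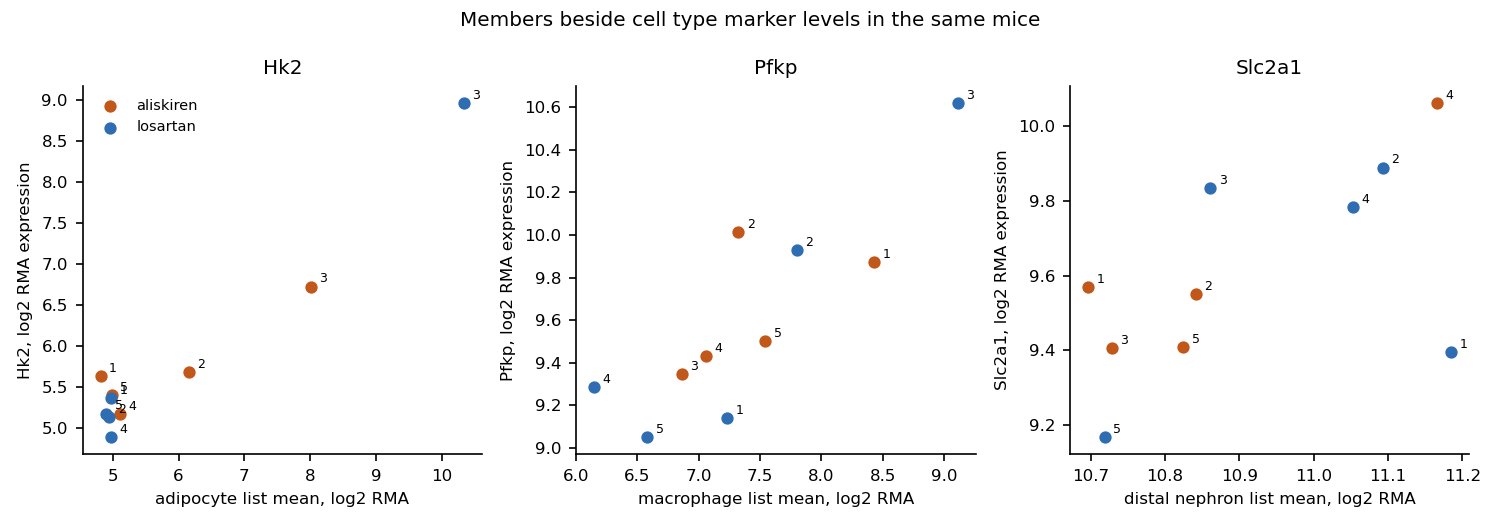
Log2 RMA level of 3 members (y axes) against the mean log2 RMA level of a marker list in the same mouse (x axes): Hk2 with adipocyte genes, Pfkp with macrophage genes and Slc2a1 with distal nephron and collecting duct genes. Aliskiren mice are orange, losartan mice blue, and numbers are mouse numbers. The highest Hk2 values, 6.73 in aliskiren mouse 3 and 8.97 in losartan mouse 3, belong to the mice with the highest adipocyte means.

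Members differed in the genes they resembled most. Likeness was measured as Pearson's r over the 10 mice among all tested entries and is a description, since every gene shares the same mice and losartan mouse 3 weighs heavily. Closest to Hk2 were Fabp5, a fatty acid binding protein gene (r = 0.99), Retn, which encodes the fat cell hormone resistin (0.99), and Mmd (0.98). Closest to Pfkp were the kinase gene Pim1 (0.96), the Toll-like receptor gene Tlr1 (0.96) and Prex1 (0.96), a Rac exchange factor gene of leukocytes. Slc2a1 was most like Enah (0.96), Mal2 (0.95), which encodes a protein of apical transport in epithelia, and 4930426D05Rik (0.95). The Hk1 probe set of its own was most like Cytip (0.96), the monocarboxylate transporter gene Slc16a7 (0.93) and Slc38a10 (0.93), and the shared probe set was most like Tex10 (0.96), Rnps1 (0.95) and Snhg5 (0.95). Pkm was most like Fry (0.98), Nfe2l1 (0.97) and Pik3r3 (0.96), and Pfkl like the ceramidase gene Acer2 (0.95), Pms2 (0.94) and the citrate synthase gene Cs (0.94). Pgk1 was most like Gm16740 (0.98), Tpgs2 (0.95) and Nhsl1 (0.94). Ldha had the loosest neighbours, with the mismatch repair gene Msh6 at 0.91, Pigx at 0.90 and Oscp1 at 0.89. For Bnip3 they were the kynureninase gene Kynu (0.95), Mknk1 (0.92) and Dera (0.91). Slc2a1 can be set beside distal markers: the distal nephron and collecting duct list averaged 11.17 in aliskiren mouse 4, against 10.70 to 10.84 in the other aliskiren mice. Losartan mouse 1, the highest in that list at 11.19, had Slc2a1 at 9.39, among the lowest values.

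The other enzymes of glycolysis showed little common movement along Havcr1. Of 22 listed, 16 had a probe set of their own and 15 were tested, of which 1 rose and 1 fell. Over all entries 11.0% rose and 2.91% fell. Aldoa, the aldolase of muscle and most cells, rose with a slope of 0.11 (SE 0.028, limma adjusted p = 0.0330), or 0.037 without losartan mouse 3. Pfkm, the muscle phosphofructokinase, fell with a slope of -0.073 (SE 0.020, limma adjusted p = 0.0428) and was at -0.065 without that mouse. By their highest-mean probe sets the phosphofructokinase genes therefore had slopes of 0.27 for Pfkp, 0.086 for Pfkl and -0.073 for Pfkm. Ldhd, the D-lactate dehydrogenase gene, had -0.14 (SE 0.054, limma adjusted p = 0.0991), or -0.0087 without losartan mouse 3. Between the drugs 0 of the 15 passed. Pgam2, the muscle phosphoglycerate mutase, had the smallest p, at 9.09 ± 0.26 in aliskiren mice and 9.70 ± 0.31 in losartan mice (SD, n = 5 each), a difference of -0.61 (SE 0.16, limma adjusted p = 0.945).

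Among 10 tested glucose and lactate transporters 1 rose and 0 fell, beside 11.0% and 2.91% of all entries. The 1 that rose was Slc5a1, the sodium-glucose cotransporter SGLT1 of the late proximal tubule, at 0.066 (SE 0.018, limma adjusted p = 0.0383). Slc16a1, the lactate transporter MCT1, had 0.20 (SE 0.10, limma adjusted p = 0.212), and the fructose transporter gene Slc2a5 had -0.11 (SE 0.053, limma adjusted p = 0.185). The drug difference of smallest p was that of the urate transporter gene Slc2a9, -0.36 (SE 0.15, limma adjusted p = 0.945). Of 11 genes for pyruvate entry into mitochondria 1 rose and 1 fell: Pdp1, a phosphatase that activates pyruvate dehydrogenase, at 0.19 (SE 0.053, limma adjusted p = 0.0438), and Pdk2, a kinase that inhibits it, at -0.093 (SE 0.026, limma adjusted p = 0.0440). Pdk3 had -0.14 (SE 0.049, limma adjusted p = 0.0824). The smallest p between the drugs was that of Dld, a shared subunit of mitochondrial dehydrogenase complexes, at 0.095 (SE 0.067, limma adjusted p = 0.949). Without losartan mouse 3 neither slope passed, at 0.16 for Pdp1 and -0.034 for Pdk2.

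Genes induced by hypoxia went both ways along Havcr1. Of 25 tested, 7 rose and 2 fell, where 11.0% of all entries rose and 2.91% fell. Their median slope was 0.046, beside 0.0089 over all entries. The smallest p belonged to Anxa2, an annexin gene, at 0.42 (SE 0.057, limma adjusted p = 0.00322), Lox, the collagen cross-linking lysyl oxidase, at 0.42 (SE 0.076, limma adjusted p = 0.00845), and Edn1, the endothelin-1 gene, at 0.21 (SE 0.043, limma adjusted p = 0.0131). In the fit that left out losartan mouse 3 the slopes were 0.33 for Anxa2, 0.22 for Lox and 0.11 for Edn1, and none of these 3 passed (limma adjusted p = 0.0944, 0.136 and 0.252). The 2 that fell, named after their values were seen, were the transferrin receptor gene Tfrc at -0.19 (SE 0.046, limma adjusted p = 0.0224) and the adenylate kinase gene Ak4 at -0.11 (SE 0.031, limma adjusted p = 0.0479). The other 4 that rose, also named after their values were seen, were the growth factor gene Pdgfb at 0.18, the transcription factor gene Ets1 at 0.19, the histone demethylase gene Kdm3a at 0.065 and Egln3, a prolyl hydroxylase gene of the HIF feedback loop, at 0.15. With losartan mouse 3 left out these 6 were at -0.14 for Tfrc, -0.12 for Ak4, 0.11 for Pdgfb, 0.15 for Ets1, 0.051 for Kdm3a and 0.18 for Egln3, and 0 of them passed. Between the drugs the smallest p was that of the lysyl hydroxylase gene Plod2, with a difference of 0.33 (SE 0.11, limma adjusted p = 0.945). Matrix genes rose along Havcr1 as well, and their part in the Lox slope was not tested. Of 12 HIF subunits and regulators 0 passed in either direction. Hif1a, the alpha subunit of HIF-1, had 0.035 (SE 0.025, limma adjusted p = 0.363), Hif3a had -0.045 (SE 0.032, limma adjusted p = 0.365) and the elongin gene Elob had 0.044 (SE 0.020, limma adjusted p = 0.155). Elob also had the smallest p of this list between the drugs, at -0.14 (SE 0.075, limma adjusted p = 0.945). HIF is controlled mainly through the stability of its alpha protein, which an RNA array does not measure.

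The gluconeogenic enzymes, which run the pathway in reverse in the proximal tubule, had negative slopes in 5 of 6 cases. Of these 1 passed, where 2.91% of all entries fell. Slc37a4, the glucose 6-phosphate transporter gene, fell at -0.098 (SE 0.029, limma adjusted p = 0.0496), just under the threshold, and was at -0.057 without losartan mouse 3. Pck2, the mitochondrial phosphoenolpyruvate carboxykinase, had 0.087 (SE 0.028, limma adjusted p = 0.063) and Fbp1, fructose bisphosphatase, had -0.038 (SE 0.018, limma adjusted p = 0.188). The drug difference of smallest p was that of the pyruvate carboxylase gene Pcx, -0.096 (SE 0.070, limma adjusted p = 0.949). Without losartan mouse 3, 0 genes of the 6 pathway lists passed, where 0.192% of all entries rose and 0% fell.

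**Figure D5:**
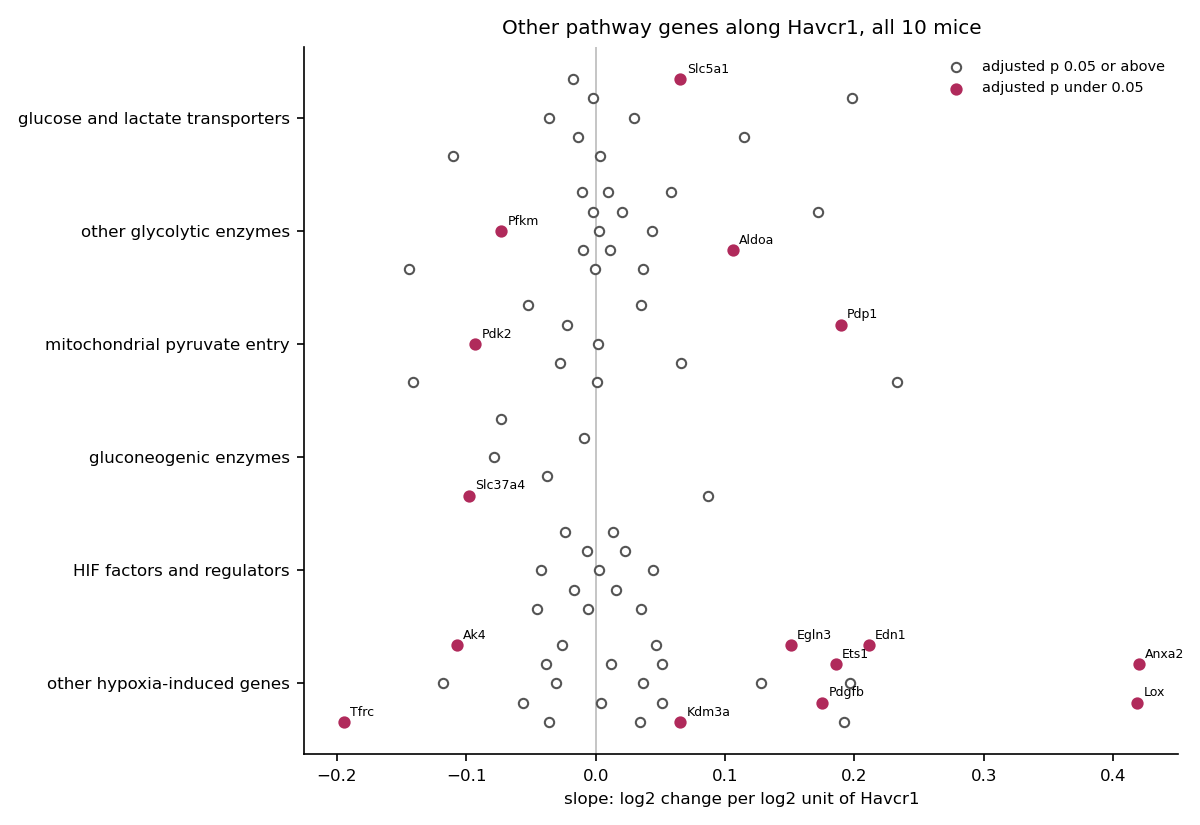
Slopes along Havcr1 (x axis, log2 change per log2 unit of Havcr1, all 10 mice) of the other pathway genes by list (y axis, with vertical offsets only to separate points). Filled points passed limma's adjusted threshold of 0.05 and are named. The hypoxia-induced list holds 7 of 25 that rose and 2 that fell, beside 11.0% and 2.91% of all entries. The list of HIF factors and regulators holds none past the threshold.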

How the data were processed

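Total RNA of the renal cortex was measured on 1 mouse array per animal, in 5 aliskiren and 5 losartan mice named by the numbers in the labels. Per the submitters' processing notes, the log2 values that the authors deposited were made by RMA in Affymetrix Expression Console 1.1. RMA corrects background, sets the arrays to the same distribution and summarises probes, so values of different probe sets are not compared as levels. The genome build is not given in the sources used here. No 2 arrays held identical values (0 of 45 pairs). Nothing in the labels says more on how the mice were handled as batches.

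From 45101 probe sets, 64 controls were left out. Of the rest, 34945 carried 1 gene symbol, 932 several and 9160 none in the platform annotation, and symbols were updated through RefSeq. Each gene was read from its highest-mean single-symbol probe set with a mean of at least 5.53, and members from their highest-mean probe set, shared or not. The drug contrast, the slope along Havcr1 with a treatment term and their interaction were fitted with limma 3.58.1 in R 4.3.3, with Benjamini-Hochberg adjustment over all entries and a threshold of 0.05. Data were also simulated on the gene means, with the spread left after Havcr1 and treatment were fitted. In them the fits recovered 55 of 67 genes changed by 0.585 between the drugs. The drug contrast itself has no Havcr1 term, so for genes that move with Havcr1 its spread is wider and this recovery is too high. Along Havcr1 the fits recovered 60 of 67 genes with a slope of 0.25 but only 30 of 67 with a slope of 0.1. In the simulation 11286 genes stayed unchanged, so fewer genes changed than the 1258 and 334 called along Havcr1 in the data. The adjusted threshold was therefore stricter in the simulation, and the recovery along Havcr1 may be too low for the data. Between the drugs, where 0 entries were called, it was looser, and that recovery may be too high. How often slopes as small as those of most members would be missed is thus not known. The number of arrays limits the precision.

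The text names all members, the 3 genes of smallest p along Havcr1 and the gene of smallest p between the drugs from each pathway list, and the 3 genes most like each member. The members and lists were chosen with earlier results of these data known. Mouse numbers did not pair the groups: same-numbered mice correlated at -0.062, -0.23, -0.029, 0.42 and 0.23. Alternatives covered the filter, probe set choice, scaling, moderation, array weights, the replicate block, covariates, threshold, injury readout and left-out mice. Leaving out the mice high in adipocyte markers together was chosen after seeing the data. Promoters came from the RefSeq table on GRCm38.p6, in which all 9 members were found. Figures were drawn with matplotlib 3.10.9.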

Additional observations from a re-analysis of the deposited data

Results flagged for a closer look

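In 70 groups of 5 mice, made of 35 named genes in each drug group, 9 had a mouse set far from the others of its group by Dixon's test. Chance marks about 1 in 20 groups, but that rate does not apply here, because many of the genes were named for a small p along Havcr1 and losartan mouse 3 weighs on that slope. Aliskiren mouse 4 stood apart for Slc2a1, at 10.06 where the other aliskiren mice lay between 9.40 and 9.57. Aliskiren mouse 1 stood apart for Slc2a5, at 9.34 where the others lay between 10.09 and 10.24. The remaining 7 were all losartan mouse 3, and 5 of these were in genes named in that way. Among members, Hk2 was at 8.97 in this mouse, against 4.89 to 5.37 in the other losartan mice, and Pfkl at 8.30, against 7.56 to 7.71. Among the other pathway genes it was high for Aldoa at 13.45 (others 12.66 to 12.86), Lox at 7.85 (5.06 to 5.74) and Edn1 at 7.91 (6.54 to 6.75). It was low for Ldhd at 12.00 (12.98 to 13.35) and Pdk2 at 8.02 (8.58 to 8.68).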

How the results depend on the processing

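With 5 mice per drug and signal on 1 array each, moderate differences in Hk2, Pfkp and Pkm could not be bounded, and slopes lean on losartan mouse 3, which holds the top of the Havcr1 range. Calls between the drugs stayed at 0 for members and genes under every alternative run. The Pfkp slope was positive under all 28 (0.17 to 0.30) and passed under 24 of them, with adjusted p from 0.00119 to 0.177.

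The counts of genes along Havcr1, 1258 higher and 334 lower with all mice, moved most, and the causes were not tested except that fewer mice were fitted where mice were left out. Leaving out each mouse in turn gave 22 to 1343 higher and 0 to 393 lower, and 0 to 2 members higher. The lowest counts came without losartan mouse 3 and the 2 members, Pfkp and Hk2, without aliskiren mouse 3. Without losartan mouse 3 and aliskiren mouse 3, 0 members, 19 genes higher and 0 lower passed. Without aliskiren mouse 2 as well, 0 members, 21 genes higher and 0 lower passed. Without the 2 mice farthest from the Havcr1 median, losartan mice 3 and 5, 0 members, 0 genes higher and 0 lower passed by limma. With the mouse number as a replicate block the counts were 393 higher and 42 lower, and Pfkp passed (0.27, adjusted p = 0.0122); the numbers do not pair the mice, and only mice numbered 4 and 5 correlated best with their own number. Array weights gave 408 and 45, the adipocyte mean as a covariate 575 and 75, the 75th percentile filter 518 and 104, and the ordinary t statistic 770 and 153. The lower count alone moved with no level filter (566), the mean of a gene's probe sets (575), all probe sets tested one by one (582), quantile normalization (582), a threshold of 0.10 (780) and Lcn2 in place of Havcr1 (597). With Lcn2, 2 members were higher, Pfkp and Hk2 (0.59, adjusted p = 0.0391). Losartan mouse 3, through which alone Hk2 passed the level filter, also had the highest Lcn2 level, 10.19.

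Signs that turned belonged to values near 0 or to those resting on few mice, and 0 of these values passed before the change. For the drug difference, Hk2 was 0.49 and Slc2a1 0.042 with array weights. Without losartan mouse 3 and aliskiren mouse 3, Hk2 was 0.33, Ldha 0.017 and Slc2a1 0.089, and without aliskiren mouse 2 as well, Hk2 was 0.26 and Slc2a1 0.12. Hk1 was -0.16 by its own probe set and -0.14 as a mean of its own probe sets, where the shared probe set gave 0.011. Over single mice left out, the drug difference ranged from -0.44 to 0.58 for Hk2, -0.11 to 0.28 for Pfkp, -0.13 to 0.054 for Slc2a1, -0.031 to 0.052 for the shared Hk1 probe set and -0.043 to 0.0047 for Ldha. For slopes, the Hk1 probe set of its own was -0.0081 with quantile normalization, -0.013 with array weights, -0.0051 with the adipocyte covariate, -0.056 and -0.061 without the mice high in adipocyte markers (2 and 3 mice) and -0.076 without the farthest mice. In those last 3 settings Hif1a was -0.0097, -0.0087 and -0.021, and it was -0.042 as a mean of probe sets. Pfkl was -0.0042 and -0.018 without the mice high in adipocyte markers. Without the farthest mice Hk2 was -0.093, Pkm -0.060 and Slc2a1 -0.012. Over single mice left out, slopes ranged from -0.078 to 0.58 for Hk2, -0.033 to 0.010 for Bnip3, -0.033 to 0.033 for the Hk1 probe set of its own and -0.014 to 0.054 for Hif1a.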
